A study of Homo sapiens with 8 samples.

Results

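Interferon-stimulated genes are the transcripts that cells raise when interferon binds its receptors, and 40 of them were followed here in MOLM-13 cells treated with PR-957. The members were chosen by gene name, as a list of interferon-regulated transcription factors and antiviral effectors, and all 40 were found among the 38551 genes of the count table. MOLM-13 is a human acute myeloid leukemia cell line that carries a KMT2A fusion. Cells had received either DMSO, the diluent, or 100 nM PR-957 for 72 h, with 4 libraries of polyA RNA in each group. PR-957, also named ONX-0914, inhibits the immunoproteasome subunit PSMB8. All libraries came from the same line, and the labels do not say whether replicates were separate cultures, so p-values measure the spread between these libraries, which may be technical. In RNA of whole cultures, fewer cells that express a gene and less RNA per cell cannot be told apart.

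The interferon pathway works as a relay. RNA or DNA in the wrong compartment is recognised by sensors, which switch on interferon genes through IRF3 and IRF7. Secreted interferon binds its receptor, and the kinases JAK1 and TYK2 phosphorylate transcription factors such as STAT2, which joins IRF9 in a complex that binds the interferon-stimulated response element in promoters. The induced proteins degrade or sequester viral RNA, tether virions, attach the ubiquitin-like protein ISG15 to targets, or feed back on the relay itself.

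Total counts per library ran from 16675036 to 23111223, and DMSO replicate 4 was the deepest. Of 8 markers of KMT2A-rearranged myeloid leukemia, each had at least 114 counts in every library, with list sums from 24719 to 33163 counts in DMSO and from 42092 to 50427 counts in PR-957 libraries. The markers did not move together: LYZ had 2477 to 3111 counts in DMSO libraries against 13191 to 18286 under PR-957, while FLT3 had 5487 to 7951 against 2761 to 3719. Their part in the results was not tested. Lists of T cell, B cell, erythroid, fibroblast and plasmacytoid dendritic cell markers summed to at most 41 counts in any library. The T cell gene CD3E was at 0 throughout. IL3RA and LILRA4 were also listed at 0, but both have more than 1 placement in the table, so their levels are unknown. The epithelial list summed to between 142 and 441 counts, nearly all from KRT8.

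The response element was searched in promoters from RefSeq (build GRCh38.p14), each a window of 300 bases from 250 before to 50 after a gene start. The core searched was GAAANNGAAA, or TTTCNNTTTC on the other strand, with overlapping matches counted. Windows were found for 31 of the 40 genes. Those of IRF2, IRF3, IRF7, OASL, OAS2, USP18, IFIT2, TRIM22 and MX2 were missing. A match was present for 19 of the 31 genes (61.3%), against 4.38% of 27305 genes with any window, and 12 genes had 2 or more matching sites. Of all windows of this length, 3.57% held a match, against 23 of 47 windows of the members (48.9%). A match is a description of letters and shows no binding. The members were listed as interferon-regulated genes, so a share above that of all genes describes the list. It is no result about PR-957. The stretches shown here, from 160 bases before to 10 bases after the start, are shown because the results turn on these genes. IFIT1, IFIT3 and ISG15 changed their call with DMSO replicate 4, BST2 and XAF1 held the largest called changes with all 8 libraries, IFIT5 differed from its neighbours, and DTX3L shares its site with PARP9. Capitals mark the matches to the core, and overlapping matches run together.

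IFIT1 (chr10:89392463-89392632, plus strand): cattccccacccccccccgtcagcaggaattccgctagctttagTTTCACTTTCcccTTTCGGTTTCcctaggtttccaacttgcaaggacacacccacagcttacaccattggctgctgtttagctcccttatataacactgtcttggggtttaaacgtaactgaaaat
IFIT3 (chr10:89327837-89328006, plus strand): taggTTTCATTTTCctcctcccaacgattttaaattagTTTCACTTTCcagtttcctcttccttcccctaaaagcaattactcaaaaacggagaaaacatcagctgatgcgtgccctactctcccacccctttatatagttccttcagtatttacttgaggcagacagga
IFIT5 (chr10:89414408-89414577, plus strand): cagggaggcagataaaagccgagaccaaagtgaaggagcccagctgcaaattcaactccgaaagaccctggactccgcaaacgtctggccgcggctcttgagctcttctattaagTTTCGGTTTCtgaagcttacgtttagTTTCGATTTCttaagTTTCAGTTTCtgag
ISG15 (chr1:1013337-1013506, plus strand): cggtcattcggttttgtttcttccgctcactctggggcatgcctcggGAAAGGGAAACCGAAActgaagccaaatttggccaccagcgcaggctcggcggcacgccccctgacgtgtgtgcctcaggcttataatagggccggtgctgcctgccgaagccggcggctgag
BST2 (chr19:17405621-17405790, minus strand): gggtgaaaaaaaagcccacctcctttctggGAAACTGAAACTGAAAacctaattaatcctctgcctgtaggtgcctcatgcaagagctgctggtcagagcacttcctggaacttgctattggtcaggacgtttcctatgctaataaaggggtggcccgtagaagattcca
DTX3L (chr3:122564178-122564347, plus strand): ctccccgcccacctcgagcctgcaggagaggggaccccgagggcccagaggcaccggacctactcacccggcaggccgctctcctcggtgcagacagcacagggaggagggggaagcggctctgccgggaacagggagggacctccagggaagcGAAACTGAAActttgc
XAF1 (chr17:6755287-6755456, plus strand): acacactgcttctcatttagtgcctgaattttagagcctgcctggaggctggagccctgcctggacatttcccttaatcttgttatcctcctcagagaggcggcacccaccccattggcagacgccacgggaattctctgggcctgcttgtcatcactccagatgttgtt

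IFIT1 and IFIT3 each carried 2 matches in this stretch, in the same orientation, and a second window of IFIT3, not shown, held 2 more. IFIT5 carried 3, the last of which crosses the start. In ISG15 and in BST2, a pair of matches overlapped to form a longer run. The match of DTX3L, on the plus strand at chromosome 3, 122564332 to 122564341, is also the match found for PARP9, which is transcribed from the opposite strand. XAF1 had no match in either of its windows, nor had STAT2, IRF1, IRF5, IFI16, IFI35, OAS1, CMPK2, ADAR, HERC6, SAMD9L or IRF9 in theirs. Sites with another spacing or other letters were not searched, so the lack of a match does not show that the element is absent.

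DMSO replicate 4 stood apart from the other DMSO libraries in these genes, and results are therefore given with and without it. A library was called isolated when its gap to the nearest of the other 3 libraries of its group divided by the whole range of the group exceeded Dixon's critical value for 4 values. DMSO replicate 4 was isolated above its group in 6 of 36 tested members (16.7%), namely IFIT1, IFIT2, IFIT3, OAS2, ISG20 and IFI44, against 2.15% of all tested genes. On a log2 scale these shares were 3 of 36 (8.33%) and 1.52%. It was the highest DMSO library in 29 of the 36 members, against 29.5% of all tested genes. The median member stood at 1.41 times the mean of DMSO replicates 1 to 3 in this library, against 0.985 times over all tested genes. No other library was isolated above its group in any tested member. The summed level of the 40 genes was 968, 977 and 980.3 CPM in DMSO replicates 1 to 3, 1224 CPM in DMSO replicate 4, and between 999.7 and 1070.4 CPM in the PR-957 libraries. CPM is the count of a gene relative to the library total, per 1e6 counts, with totals scaled by TMM (trimmed mean of M-values). The greater depth of DMSO replicate 4 is scaled out of these values, and its part in the pattern beyond that was not tested.

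**Figure D1:**
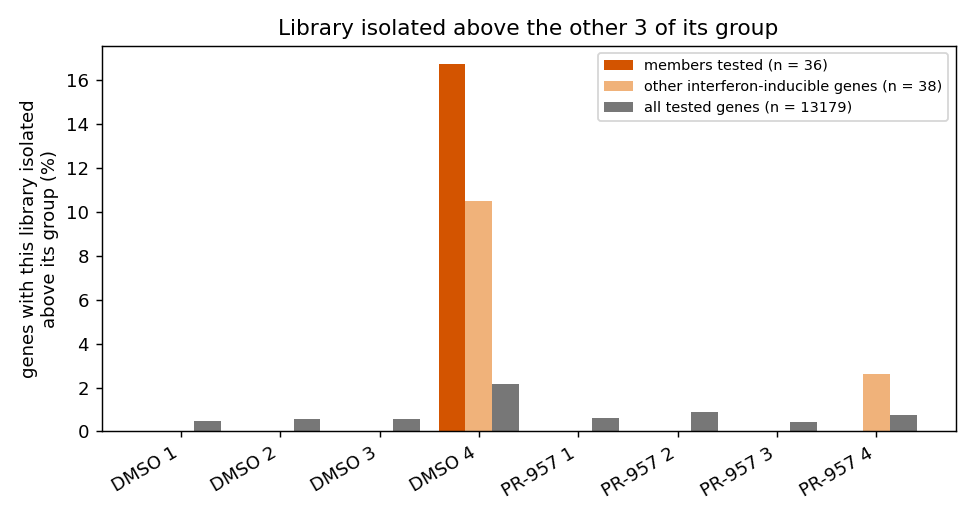
Share of genes (y axis, %) in which the library on the x axis was isolated above the other 3 libraries of its group, for 36 tested members, 38 other interferon-inducible genes and 13179 tested genes. DMSO replicate 4 was isolated in 16.7%, 10.5% and 2.15% of these genes, while the members had no bar in any other library.

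To ask whether inhibition of the immunoproteasome shifts the interferon-stimulated genes, PR-957 was compared with DMSO in a single fit over 13179 genes (edgeR quasi-likelihood test, adjusted over all genes tested). Of the 40 members 36 were tested. With all 8 libraries, 4 members passed an adjusted p of 0.05 as higher and 10 as lower, and 22 did not pass. Over all genes tested, 23.1% were higher and 23.5% lower. The share of members higher was thus 4 of 36 and the share lower 10 of 36, the latter near the background. The genes that rose were BST2, IRF5, TRIM22 and IRF3, and those that fell were XAF1, RSAD2, IRF7, IFIT5, IFI16, IFIH1, IRF1, DTX3L, STAT2 and IRF2. The median log2 fold change over the 36 genes was -0.05, against 0.0030 over all genes tested.

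Without DMSO replicate 4, 12 members were higher and 9 lower, and the median became 0.18, against 0.0073 over all genes. The background in that fit was 23.4% higher and 23.7% lower. The calls of 13 members were shared by both fits, each in the same direction. IFIT1, IFIT3, ISG15, HERC5, CMPK2, SAMD9, IFI6 and IFI44 were called only without that library, all of them higher, and IRF7 was called only with it. DMSO replicate 4 was the highest DMSO library in each of the genes gained, and in 29 of the 36 members. Leaving it out lowers their DMSO mean. The upward shift of these fold changes and of the median therefore followed from that choice and is no separate result. With all 8 libraries IFIT1 (-1.19) and IFIT3 (-1.20) were below 0. IFI6 (1.21), ISG15 (0.46), HERC5 (0.40), CMPK2 (0.36), SAMD9 (0.24) and IFI44 (0.14) were above 0 in both fits, though not called with all libraries. In the PR-957 libraries, 4 members lay above and 10 below all DMSO libraries, against 20.8% and 21.7% of all tested genes. Without DMSO replicate 4 these numbers were 11 and 10, against 24.0% and 24.3%.

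**Figure D2:**
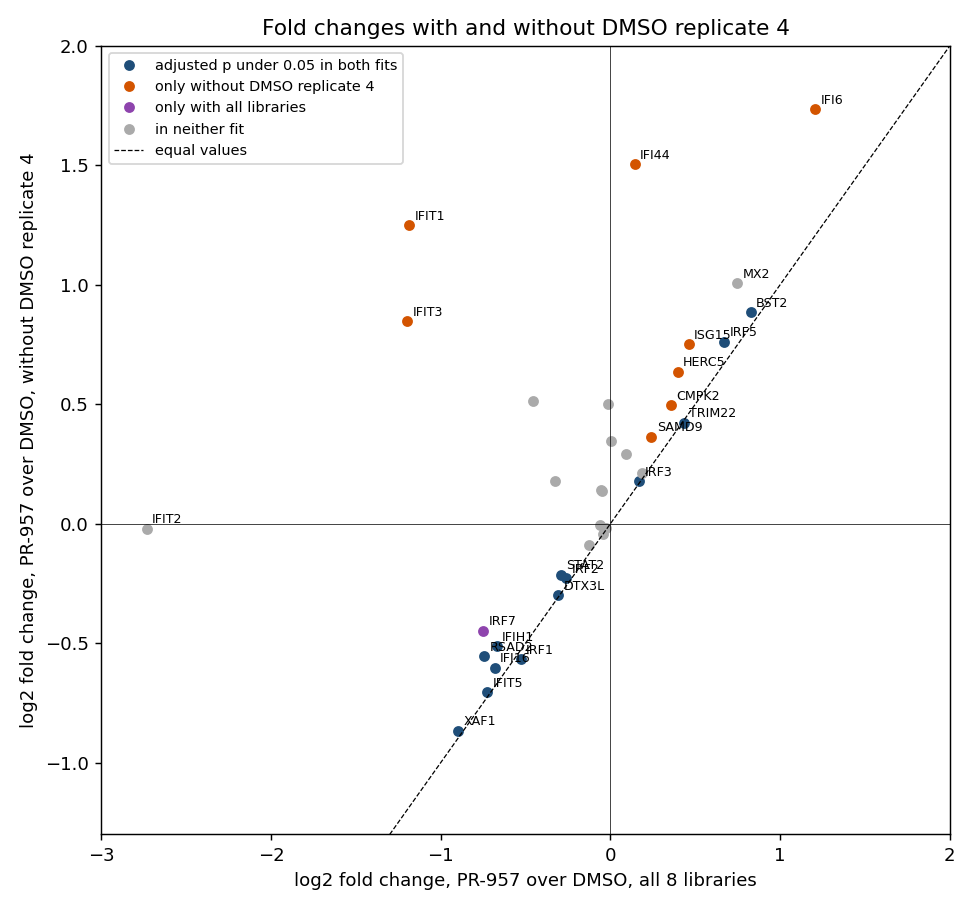
Log2 fold change of PR-957 over DMSO for 36 members with all 8 libraries (x axis) and without DMSO replicate 4 (y axis), coloured by adjusted p. Genes called in both fits lie close to the dashed line of equal values, while IFIT1 (-1.19 and 1.25), IFIT3 (-1.20 and 0.85) and IFIT2 (-2.73 and -0.02) lie far above it.

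Of the transcription factors, 6 were tested, and all of them passed, 2 as higher and 4 as lower. Without DMSO replicate 4, 2 were higher and 3 lower. Over all genes, 23.1% were higher and 23.5% lower, and 23.4% and 23.7% without that library. STAT2, a subunit of the interferon-activated complex, had 78.3, 81.9, 80.5 and 98.0 CPM in DMSO replicates 1 to 4 and 68.9, 67.0, 65.2 and 76.3 CPM in PR-957 replicates 1 to 4. All PR-957 libraries lay below all DMSO libraries (log2 fold change -0.29, SE 0.07, adjusted p = 0.00265), and without DMSO replicate 4 the log2 fold change was -0.21 (adjusted p = 0.00511). IRF1, an activator induced by interferon gamma, had 46.3, 45.8, 49.7 and 42.8 CPM in DMSO replicates 1 to 4 and 35.3, 33.1, 31.7 and 27.8 CPM in PR-957 replicates 1 to 4, again with no overlap (log2 fold change -0.53, SE 0.07, adjusted p = 1.13e-05). IRF2, which competes with IRF1 for the same sites, had 27.3, 25.1, 25.7 and 28.3 CPM in DMSO replicates 1 to 4 and 22.7, 21.6, 23.1 and 21.6 CPM in PR-957 replicates 1 to 4 (log2 fold change -0.26, SE 0.07, adjusted p = 0.00706). IRF1 and IRF2 thus lay lower in every PR-957 library than in any DMSO library. For IRF2 the adjusted p spanned 0.00442 to 0.0675 over 18 alternatives. Its decrease was lost with library totals alone (adjusted p = 0.054) and within either pair of replicates, at 0.0526 for the first pair and 0.0675 for the other.

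IRF5, which acts downstream of Toll-like receptors in myeloid cells, moved the other way. It had 21.0, 19.1, 24.2 and 26.7 CPM in DMSO replicates 1 to 4 and 32.4, 33.3, 38.2 and 41.4 CPM in PR-957 replicates 1 to 4, so that the groups did not overlap (log2 fold change 0.67, SE 0.10, adjusted p = 6.07e-05). IRF3, the constitutive factor that starts interferon transcription, had 99.1, 92.6, 86.1 and 94.9 CPM in DMSO replicates 1 to 4 and 105, 104, 108 and 103 CPM in PR-957 replicates 1 to 4, also without overlap (log2 fold change 0.17, SE 0.06, adjusted p = 0.0163). Its increase was the smallest among the called members. It was lost without DMSO replicate 3 (adjusted p = 0.0695), without PR-957 replicate 3 (0.0591) and within either pair of replicates (0.161 and 0.0552). The adjusted p of IRF3 spanned 0.00121 to 0.161 over 18 alternatives.

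IRF7, the amplifier of interferon production, was sparse. It had 1.57, 1.45, 1.21 and 2.62 CPM in DMSO replicates 1 to 4 and 1.06, 0.992, 0.959 and 1.12 CPM in PR-957 replicates 1 to 4, and DMSO replicate 4 was the highest (log2 fold change -0.75, SE 0.28, adjusted p = 0.0351). Without that library the call was lost (log2 fold change -0.45, adjusted p = 0.205), and 10 of 18 alternatives left it above the threshold, among them the fits without each of the 4 PR-957 replicates. The adjusted p ranged from 0.0209 to 0.258. The table also places IRF7 on an alternate contig (chr11_KI270832v1_alt), so its level may be undercounted. IRF9, the DNA-binding partner of STAT2, had 0 counts in all 8 libraries and is likewise placed on a second contig (chr14_KZ208920v1_fix), as is IFI27 (chr14_KI270847v1_alt), also at 0. Reads that align to 2 places are not counted by the command in the header, so the levels of IRF9 and IFI27 are unknown.

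**Figure D3:**
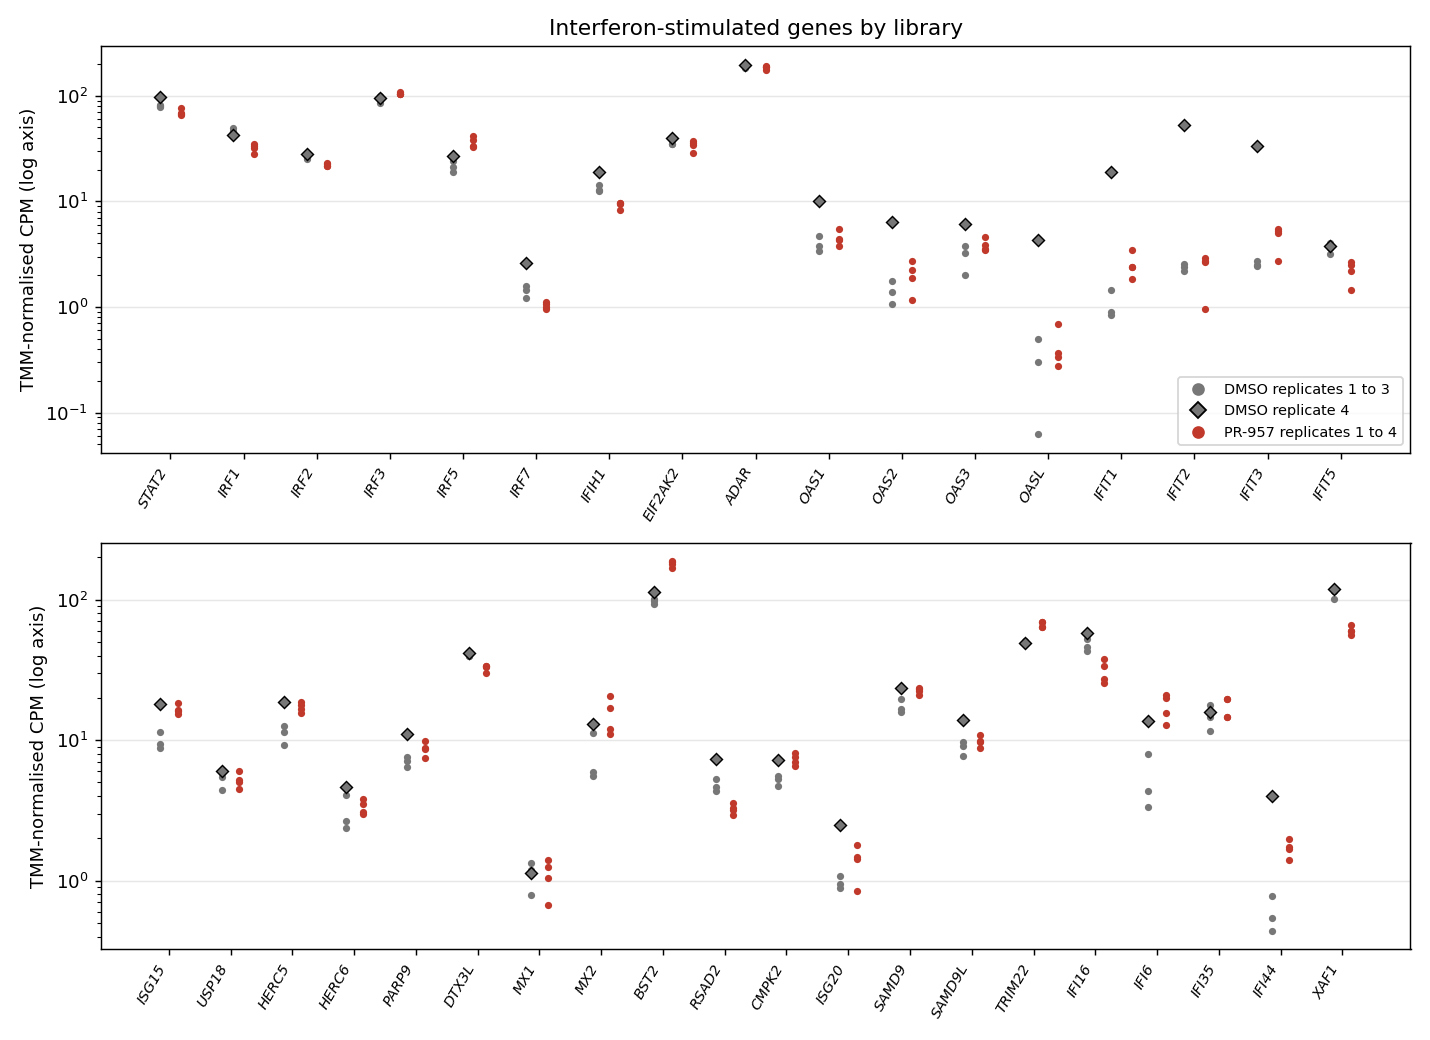
TMM-normalised CPM (log axis) of 37 members in each of the 8 libraries, with grey points for DMSO, a grey diamond for DMSO replicate 4 and red points for PR-957. IRF9 and IFI27 (0 counts) and IFI44L (at most 8 counts) are left out. The diamond of IFIT2, at 53.0 CPM, lies far above every other library of that gene, while BST2 and XAF1 separate by treatment.

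Of 10 tested genes for proteins that sense or bind foreign RNA, none was higher and 2 were lower. Without DMSO replicate 4 the numbers were 2 and 2. Over all genes, 23.1% were higher and 23.5% lower, and 23.4% and 23.7% without that library. The sensor IFIH1 (MDA5) fell. It had 14.2, 12.7, 12.5 and 19.0 CPM in DMSO replicates 1 to 4 and 9.41, 9.55, 9.54 and 8.32 CPM in PR-957 replicates 1 to 4 (log2 fold change -0.67, SE 0.13, adjusted p = 0.000244). All PR-957 libraries lay below all DMSO libraries, and the call held without DMSO replicate 4 (log2 fold change -0.51, adjusted p = 0.000476). PR-957 replicate 4 was isolated below the other 3, which spanned only 9.41 to 9.55 CPM. ADAR, which edits double-stranded RNA, differed by -0.05 on the log2 scale (SE 0.05, adjusted p = 0.504), and EIF2AK2 (PKR), the kinase that halts translation, -0.13 (SE 0.08, adjusted p = 0.195). Neither passed in any of 18 alternatives.

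The oligoadenylate synthetases make the second messenger that activates RNase L. OAS2 had 1.75, 1.06, 1.39 and 6.38 CPM in DMSO replicates 1 to 4 and 1.17, 2.24, 1.87 and 2.7 CPM in PR-957 replicates 1 to 4. Its DMSO replicate 4 was isolated above the group at 4.56 times the mean of DMSO replicates 1 to 3, and above every PR-957 library. The log2 fold change was -0.46 (SE 0.62, adjusted p = 0.585) with all libraries and 0.51 (SE 0.30, adjusted p = 0.164) without it. OAS1 and OAS3 stood at 2.57 and 2.02 times that mean in DMSO replicate 4, and neither passed in any alternative. OASL, a catalytically inactive relative, did not pass the filter on low counts. It had 1, 9, 5 and 99 counts in DMSO replicates 1 to 4 and 5, 7, 15 and 6 counts in PR-957 replicates 1 to 4. DMSO replicate 4 thus held most of the OASL counts of its group, and in CPM it was 15.0 times the mean of the other DMSO libraries.

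The products of the IFIT genes bind viral RNA ends and block its translation. Among the members, IFIT2 and IFIT1 had the highest ratios of DMSO replicate 4 to the mean of DMSO replicates 1 to 3. By the gap as a share of the group's range, IFIT2 (0.993) and IFIT3 (0.991) came first. IFIT2 had 2.38, 2.17, 2.54 and 53.0 CPM in DMSO replicates 1 to 4 and 0.947, 2.66, 2.74 and 2.92 CPM in PR-957 replicates 1 to 4. DMSO replicate 4 was 22.4 times the mean of DMSO replicates 1 to 3, while the remaining 7 libraries lay between 0.947 and 2.92 CPM. Within the PR-957 group, replicate 1 was isolated as the lowest. With all libraries the log2 fold change was -2.73 with an SE of 1.37 (adjusted p = 0.152), and without DMSO replicate 4 it was -0.02 with an SE of 0.29 (adjusted p = 0.96).

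IFIT1 had 1.44, 0.835, 0.906 and 18.8 CPM in DMSO replicates 1 to 4 and 1.84, 2.40, 2.37 and 3.49 CPM in PR-957 replicates 1 to 4. Every PR-957 library lay above DMSO replicates 1 to 3 and below DMSO replicate 4, which was 17.8 times their mean. The sign of the change therefore turned, from -1.19 (SE 1.13, adjusted p = 0.435) with all libraries to 1.25 (SE 0.29, adjusted p = 0.00129) without that library. IFIT3 had 2.44, 2.51, 2.72 and 33.2 CPM in DMSO replicates 1 to 4 and 5.01, 2.71, 5.21 and 5.51 CPM in PR-957 replicates 1 to 4. DMSO replicate 4 was 13 times the mean of the other DMSO libraries, and PR-957 replicate 2, at 2.71 CPM, overlapped with DMSO replicates 1 to 3. Its log2 fold change turned from -1.20 (adjusted p = 0.389) to 0.85 (adjusted p = 0.00383). Within replicates 1 and 2, IFIT1 was higher (log2 fold change 0.91, adjusted p = 0.0367), while IFIT3, at 0.63, did not pass (adjusted p = 0.0599). Over 17 alternatives the adjusted p spanned 0.00129 to 0.982 for IFIT1 and 0.00383 to 0.706 for IFIT3.

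IFIT5 did not follow its neighbours. These 4 genes lie on the plus strand of chromosome 10 between 89302046 and 89420997 (hg38), and only 8080 bases separate IFIT1 from IFIT5. IFIT5 had 4.07, 3.62, 3.14 and 3.80 CPM in DMSO replicates 1 to 4 and 1.45, 2.19, 2.69 and 2.47 CPM in PR-957 replicates 1 to 4, so that DMSO replicate 4 lay within its group and all PR-957 libraries lay below it (log2 fold change -0.72, SE 0.21, adjusted p = 0.00746). Without DMSO replicate 4 the log2 fold change was -0.71 (adjusted p = 0.0125). The decrease was lost within replicates 3 and 4 (log2 fold change -0.43, adjusted p = 0.228), and the adjusted p spanned 0.0016 to 0.228 over 18 alternatives. Its promoter stretch held 3 matches to the response element, against 2 in that of IFIT1.

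In the ISG15 and ubiquitin group, 6 genes were tested and 1 was lower, while without DMSO replicate 4, 2 were higher and 1 lower. Over all genes, 23.1% were higher and 23.5% lower, and 23.4% and 23.7% without that library. ISG15, the ubiquitin-like modifier that interferon induces, had 9.33, 8.74, 11.5 and 18.1 CPM in DMSO replicates 1 to 4 and 16.0, 16.3, 18.4 and 15.4 CPM in PR-957 replicates 1 to 4. DMSO replicate 4 lay among the PR-957 libraries and the other 3 DMSO libraries lay below all of them. The increase passed the threshold without DMSO replicate 4 (log2 fold change 0.75, SE 0.11, adjusted p = 9.79e-06) and not with all libraries (log2 fold change 0.46, SE 0.21, adjusted p = 0.112). HERC5, the ligase that attaches ISG15 to proteins, had 9.21, 11.4, 12.6 and 18.7 CPM in DMSO replicates 1 to 4 and 15.7, 17.9, 18.5 and 16.7 CPM in PR-957 replicates 1 to 4. Its DMSO replicate 4 lay above all PR-957 libraries, and the other 3 DMSO libraries lay below them. HERC5 was called without DMSO replicate 4 (log2 fold change 0.64, SE 0.11, adjusted p = 6.06e-05) and not with all libraries (log2 fold change 0.40, SE 0.18, adjusted p = 0.0985). DESeq2 and limma-voom called both genes higher with all libraries, with adjusted p of 0.0241 and 0.0269 for ISG15 and of 0.038 and 0.0391 for HERC5. Over 18 alternatives the adjusted p spanned 1.03e-06 to 0.55 for ISG15 and 2.57e-05 to 0.514 for HERC5.

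The remaining genes of this group behaved otherwise. USP18, which removes ISG15 and dampens the receptor, differed by -0.06 on the log2 scale (SE 0.15, adjusted p = 0.77), and HERC6, next to HERC5 on chromosome 4, -0.05 (SE 0.21, adjusted p = 0.859). DTX3L and PARP9 encode a ubiquitin ligase and its ADP-ribosyltransferase partner, from opposite strands whose gene models overlap by 447 bases. DTX3L had 40.6, 39.8, 39.5 and 41.4 CPM in DMSO replicates 1 to 4 and 33.0, 33.5, 30.04 and 33.9 CPM in PR-957 replicates 1 to 4, lower in every PR-957 library (log2 fold change -0.31, SE 0.06, adjusted p = 0.000616). PARP9 differed by 0.09 on the log2 scale (SE 0.15, adjusted p = 0.662) and did not pass in any of 18 alternatives. In DMSO replicate 4 PARP9 stood at 1.57 and DTX3L at 1.04 times the mean of the other DMSO libraries.

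Of 10 further antiviral effectors tested, 2 were higher and 2 lower, and 4 and 2 without DMSO replicate 4. Over all genes, 23.1% were higher and 23.5% lower, and 23.4% and 23.7% without that library. BST2 (tetherin, chromosome 19, 17402939 to 17405630 in hg38), which holds budding virions at the cell surface, had the largest called increase with all 8 libraries. Without DMSO replicate 4, the called increases of IFI6 (1.73), IFI44 (1.51) and IFIT1 (1.25) were larger than its own (0.88). That of IFI44 rests on at most 14 counts in each of DMSO replicates 1 to 3. BST2 had 101, 93.3, 98.5 and 113 CPM in DMSO replicates 1 to 4 and 181, 167, 188 and 186 CPM in PR-957 replicates 1 to 4. The means were 102 ± 8.54 and 180.3 ± 9.43 CPM (SD, n = 4), and the groups did not overlap (log2 fold change 0.83, SE 0.06, adjusted p = 3.48e-09). All 18 alternatives kept the call, with log2 fold changes from 0.79 to 0.91. TRIM22, a ubiquitin ligase with antiviral activity, had 49.7, 51.1, 48.2 and 49.0 CPM in DMSO replicates 1 to 4 and 64.3, 69.9, 63.5 and 69.5 CPM in PR-957 replicates 1 to 4 (log2 fold change 0.43, SE 0.06, adjusted p = 6.3e-06). The PR-957 libraries of TRIM22 all lay above its DMSO libraries. DMSO replicate 4 of BST2 and TRIM22 stood at 1.16 and 0.986 times the mean of the other DMSO libraries.

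RSAD2 (viperin), which makes a chain-terminating nucleotide from CTP, fell, with 4.32, 4.62, 5.25 and 7.30 CPM in DMSO replicates 1 to 4 and 3.29, 3.18, 2.92 and 3.54 CPM in PR-957 replicates 1 to 4 (log2 fold change -0.74, SE 0.18, adjusted p = 0.00263). All PR-957 libraries lay below all DMSO libraries, also without DMSO replicate 4 (log2 fold change -0.55, adjusted p = 0.0114). The call was lost within replicates 1 and 2 (log2 fold change -0.47, adjusted p = 0.0987), and the adjusted p of RSAD2 spanned 0.000317 to 0.0987. CMPK2, a nucleotide kinase encoded next to it on the opposite strand, had 4.70, 5.51, 5.31 and 7.16 CPM in DMSO replicates 1 to 4 and 7.63, 8.04, 7.03 and 6.58 CPM in PR-957 replicates 1 to 4. Its PR-957 libraries lay above DMSO replicates 1 to 3, and the difference passed without DMSO replicate 4 (log2 fold change 0.50, SE 0.14, adjusted p = 0.00669) and did not pass with all libraries (log2 fold change 0.36, adjusted p = 0.0517). Of 18 alternatives 5 called CMPK2, among them library totals alone (0.023), and the adjusted p spanned 0.00566 to 0.708. The 2 genes overlap by 903 bases, and counting used strand. NRIR covers 1.09% of the exon bases of CMPK2 on its own strand. In DMSO replicate 4 both were higher than in the other DMSO libraries, at 1.54 times their mean for RSAD2 and 1.38 times for CMPK2.

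IFI16, a nuclear DNA sensor, fell, with 45.7, 43.4, 52.4 and 57.8 CPM in DMSO replicates 1 to 4 and 27.1, 25.4, 34.0 and 37.8 CPM in PR-957 replicates 1 to 4 (log2 fold change -0.68, SE 0.14, adjusted p = 0.00255). The groups of IFI16 did not overlap, although replicates 3 and 4 were the higher ones in both. SAMD9, a restriction factor of poxviruses, had 16.7, 19.7, 15.9 and 23.5 CPM in DMSO replicates 1 to 4 and 22.3, 23.6, 21.1 and 23.1 CPM in PR-957 replicates 1 to 4. Without DMSO replicate 4 it was higher (log2 fold change 0.36, SE 0.09, adjusted p = 0.00195), and in the fit of all 8 libraries it was not (log2 fold change 0.24, adjusted p = 0.0647). Of 18 alternatives 5 called SAMD9, among them library totals alone (0.0268) and no filter on low counts (0.0377), and the adjusted p spanned 0.00195 to 0.531. Its neighbour SAMD9L differed by -0.06 on the log2 scale (SE 0.15, adjusted p = 0.777) and did not pass in any alternative. ISG20, an exonuclease, had 0.939, 0.891, 1.09 and 2.49 CPM in DMSO replicates 1 to 4 and 1.78, 1.46, 1.42 and 0.844 CPM in PR-957 replicates 1 to 4, with DMSO replicate 4 isolated above the group (log2 fold change -0.01, adjusted p = 0.976, and 0.50, adjusted p = 0.204, without it).

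MX1 and MX2 are interferon-induced GTPases that trap viral capsids and nucleoproteins. MX2 had 5.51, 5.90, 11.2 and 13.1 CPM in DMSO replicates 1 to 4 and 12.0, 11.1, 17 and 20.7 CPM in PR-957 replicates 1 to 4. Replicates 3 and 4 were above replicates 1 and 2 in DMSO, and in PR-957 as well. With all libraries the log2 fold change was 0.75 (SE 0.36, adjusted p = 0.136). Within replicates 1 and 2 it was 1.01 (adjusted p = 1.17e-06) and within replicates 3 and 4 0.62 (adjusted p = 0.00368), so the change passed within each pair. The adjusted p spanned 9.18e-07 to 0.28, and 5 of 18 alternatives called it. MX1 had at most 26 counts in any library and was not called (log2 fold change -0.03, SE 0.30, adjusted p = 0.95).

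Of 4 further interferon-inducible genes tested, none was higher and 1 was lower, and 2 and 1 without DMSO replicate 4. Over all genes, 23.1% were higher and 23.5% lower, and 23.4% and 23.7% without that library. XAF1 (chromosome 17, 6755408 to 6775647 in hg38), a pro-apoptotic antagonist of XIAP, showed the largest called decrease. It had 115, 115, 101 and 120.0 CPM in DMSO replicates 1 to 4 and 56.4, 66.6, 59.5 and 60.1 CPM in PR-957 replicates 1 to 4. The means were 113 ± 8.44 and 60.6 ± 4.27 CPM (SD, n = 4), with no overlap (log2 fold change -0.90, SE 0.07, adjusted p = 2.08e-09), and all 18 alternatives kept the call. The log2 fold change ranged from -0.95 to -0.82 over them.

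IFI6, a mitochondrial and endoplasmic reticulum protein that protects from apoptosis, had 4.32, 3.34, 7.97 and 13.6 CPM in DMSO replicates 1 to 4 and 15.5, 12.7, 19.9 and 21.0 CPM in PR-957 replicates 1 to 4. As for MX2, replicates 3 and 4 were the higher ones in both groups. With all libraries the increase was not called (log2 fold change 1.21, SE 0.45, adjusted p = 0.0692), and without DMSO replicate 4 it was (log2 fold change 1.73, SE 0.33, adjusted p = 0.00485). It passed within replicates 1 and 2 (log2 fold change 1.89, adjusted p = 1.12e-12) and within replicates 3 and 4 (0.89, adjusted p = 0.0181). DESeq2 and limma-voom also called it, with adjusted p of 0.0262 and 0.0019, in a span of 1.12e-12 to 0.151.

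IFI44 had 0.438, 0.780, 0.543 and 4.02 CPM in DMSO replicates 1 to 4 and 1.67, 1.72, 1.96 and 1.41 CPM in PR-957 replicates 1 to 4. DMSO replicate 4 was isolated at 6.85 times the mean of the other DMSO libraries, and the PR-957 libraries lay between. Without it the log2 fold change was 1.51 (SE 0.32, adjusted p = 0.000626), against 0.14 (SE 0.69, adjusted p = 0.883) with all libraries. In counts, DMSO replicates 1 to 3 had 7, 14 and 9, against 25 to 43 under PR-957. IFI44 thus passed the filter on low counts through the PR-957 libraries, which limits what its call can show. IFI44L, 2797 bases from IFI44, had 0, 3, 0 and 6 counts in DMSO and 1, 3, 4 and 8 counts in PR-957 replicates 1 to 4 and was not tested. A count of 0 allows up to 3 counts, a limit that covers counting error only. IFI35 stood at 0.19 on the log2 scale (adjusted p = 0.27), with 0.57 within replicates 1 and 2 (adjusted p = 0.000147) and -0.21 within replicates 3 and 4 (adjusted p = 0.233), in a span of 0.000147 to 0.605.

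Levels of the members were compared per kilobase of exon on the primary chromosome. In DMSO, BST2 was the most abundant at 101 ± 8.53 CPM per kb (SD, n = 4). IRF3 came next at 34.7 ± 2.02 CPM per kb. ISG15, XAF1, ADAR and TRIM22 followed between 17.1 and 18.7 CPM per kb, a range within the SD of ISG15, 6.72. The place of ISG15 in DMSO rests on DMSO replicate 4, since over DMSO replicates 1 to 3 it was at 15.5 CPM per kb, below XAF1 (18.1), ADAR (17.9) and TRIM22 (17.2). Under PR-957 the order began with BST2, IRF3, ISG15 and TRIM22, and XAF1 was in the ninth place. In DMSO replicate 4, IFIT2 reached 15.6 CPM per kb, near the level of STAT2 in the same library, 18.3, while in DMSO replicates 1 to 3 its mean was 0.696 CPM per kb.

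Of the 40 genes, 19 lie within 100000 bases of another member, in 11 neighbouring pairs. Neighbours did not always move alike. Without DMSO replicate 4, CMPK2 and RSAD2, and IFIT1 and IFIT5, had log2 fold changes on opposite sides of 0. So had PARP9 (0.29) and DTX3L (-0.30), MX2 (1.01) and MX1 (-0.02), and IFIT3 (0.85) and IFIT2 (-0.02). The values of MX1 and IFIT2 were near 0, and PARP9 and MX2 were not called in that fit. With all 8 libraries IFIT1 (-1.19), IFIT2 (-2.73), IFIT3 (-1.20) and IFIT5 (-0.72) all lay below 0. The other pairs named so far had opposite signs with all libraries too. SAMD9 with SAMD9L and HERC5 with HERC6 had the same sign without DMSO replicate 4, and 1 member of each pair was called. With all libraries SAMD9L (-0.06) and HERC6 (-0.05) lay just below 0. IFIT3 and IFIT1 (1.25) were both called higher without DMSO replicate 4. OAS1 (0.18), OAS3 (0.34) and OAS2 (0.51) were also above 0 in that fit, and none of them was called. No interaction between neighbours was tested.

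The steps upstream of the members were read from lists of pathway genes. None of 10 interferon ligand genes was tested, since all were at or near 0. IFNB1, the first interferon made after virus sensing, had 0, 0, 1 and 6 counts in DMSO replicates 1 to 4 and 0 in all PR-957 libraries, and IFNA1 had 1 count in 1 library. With no filter on low counts IFNB1 passed as lower (adjusted p = 0.0497), on 7 counts in all. The 6 counts of IFNB1 were in the library with the highest IFIT transcripts, and their part in that pattern was not tested. The others of the list, IFNA2, IFNE, IFNK, IFNW1, IFNG, IFNL1, IFNL2 and IFNL3, had 0 counts throughout.

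Of 13 receptor and signalling genes tested, 3 were higher and 3 lower, against 23.1% and 23.5% of all genes, with a median of -0.09 on the log2 scale. The receptor chain IFNAR2 rose from 46.6 ± 3.16 to 57.9 ± 6.06 CPM (SD, n = 4, log2 fold change 0.31, SE 0.07, adjusted p = 0.0019), while IFNAR1 had -0.08 (adjusted p = 0.347). Of the kinases, JAK1 fell (log2 fold change -0.27, SE 0.05, adjusted p = 0.000497) and TYK2 rose (log2 fold change 0.24, SE 0.05, adjusted p = 0.000827). SOCS1, an inhibitor of the kinases, fell (log2 fold change -0.49, SE 0.16, adjusted p = 0.0199) and did not pass without DMSO replicate 4 (adjusted p = 0.0582). The number lower ranged from 1 to 4 when single libraries were left out.

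Of 12 sensors and adaptors tested, 5 were higher and 4 lower, against the same 23.1% and 23.5%, with a median of 0.08. DHX58 (LGP2), a partner of MDA5, fell (log2 fold change -0.95, SE 0.25, adjusted p = 0.00391), in the same direction as IFIH1. IKBKE, a kinase that activates IRF3 and IRF7, rose (log2 fold change 0.62, SE 0.08, adjusted p = 1.93e-06), as did the adaptor MYD88 (log2 fold change 0.46, SE 0.06, adjusted p = 7.23e-06). Each of these 3 calls held without DMSO replicate 4.

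A further 45 interferon-inducible genes served to read the members against others of their kind, and 38 were tested. Of these 12 were higher and 9 lower, against 23.1% and 23.5% of all genes, with a median of -0.06 on the log2 scale, and without DMSO replicate 4 the numbers were 15 and 9 with a median of 0.0025. CXCL10, a chemokine, had 3.82, 2.12, 2.29 and 7.56 CPM in DMSO replicates 1 to 4 and 1.39, 1.25, 1.51 and 1.29 CPM in PR-957 replicates 1 to 4 (log2 fold change -1.55, SE 0.39, adjusted p = 0.00605). Its change was smaller without DMSO replicate 4 (log2 fold change -0.999, adjusted p = 0.003), and the PR-957 libraries lay below all DMSO libraries in either case. IFI30, a lysosomal thiol reductase, rose (log2 fold change 1.16, SE 0.16, adjusted p = 8.49e-06), and SIGLEC1, a myeloid lectin, stood at 1.11 on the log2 scale (adjusted p = 0.0497) from at most 21 counts per library. For SIGLEC1 too, DMSO replicate 4 was isolated above its group, and without it the log2 fold change was 1.76 (adjusted p = 0.00647). DMSO replicates 1 to 3 had 4, 3 and 4 counts against 8 to 21 under PR-957. SIGLEC1 thus entered the fit without DMSO replicate 4 through PR-957 libraries, which limits what that value can show. The call of SIGLEC1 held in 6 of 16 alternatives, with adjusted p from 0.00647 to 0.195. DMSO replicate 4 was isolated above its group in 4 of the 38 genes (10.5%). A match to the response element was found for 19 of 35 genes of this list with a promoter window, and for 1 of 11 receptor and signalling genes.

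**Figure D4:**
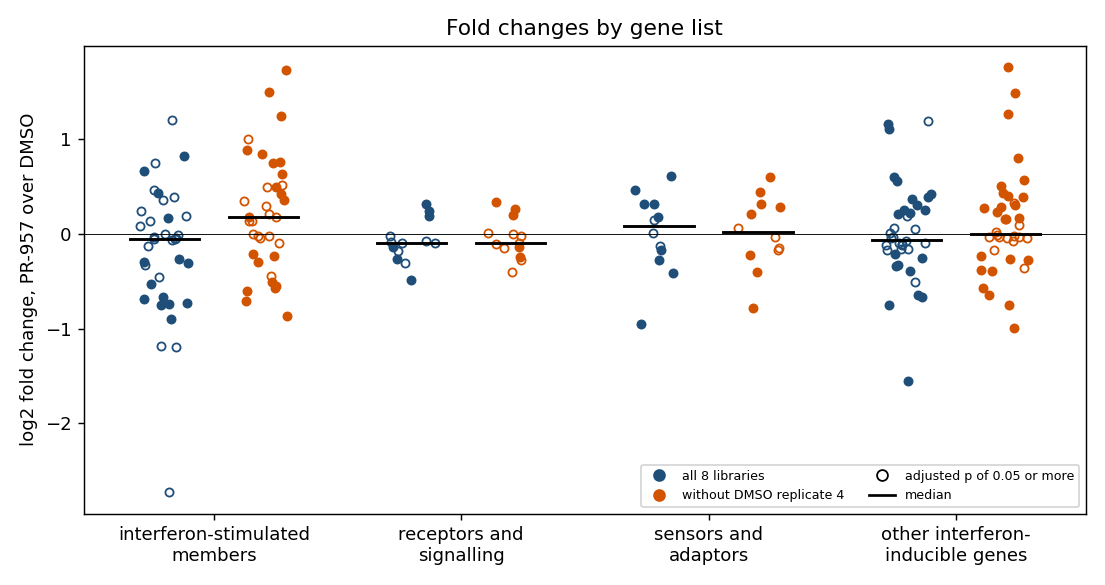
Log2 fold change of PR-957 over DMSO (y axis) for the tested genes of 4 lists, with all 8 libraries in blue and without DMSO replicate 4 in orange. Filled points have an adjusted p under 0.05, black bars are medians, and points are spread sideways only for legibility. The median of the members moved from -0.05 to 0.18 when DMSO replicate 4 was left out, while that of the receptors stayed at -0.09.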

How the data were processed

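Libraries of polyA RNA (TruSeq) from MOLM-13 cells were sequenced as paired ends. Per the labels and the file headers, reads were trimmed (Trimmomatic 0.39), aligned to hg38 (STAR 2.7.10a), and fragments with both ends mapped were counted per RefSeq gene on the reverse strand with featureCounts 2.0.1. The authors deposited raw counts, which have no normalization. The header named 16 libraries, of which 8 are in the table. The others were not analysed here. A second deposited table holds the authors' own DESeq2 comparison and was not used. Of 38557 rows, 6 without values were left out. The Strand column is truncated in genes with many exons and was filled with its last entry. Of the genes, 2304 also have an alternate or fix contig, among them 3 members.

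PR-957 was compared with DMSO by edgeR 4.0.16 in R 4.3.3 (filterByExpr, TMM, robust glmQLFit, glmQLFTest, two-sided, no covariate), with Benjamini-Hochberg adjustment over all genes tested. The SE is the size of the log2 fold change over the root of F. CPM were scaled by TMM factors of tested genes, for untested genes too. Alternatives were DESeq2 1.42.0, limma-voom (limma 3.58.1), other scalings and filters, replicate terms, pairs of replicates, and leaving out each library. The members and lists were chosen with earlier results of these data known. All members are accounted for. Values per library are given for members called with or without DMSO replicate 4 or with an isolated library, MX2 was added after its values were seen, and upstream genes are IFNAR1, IFNAR2, JAK1, TYK2 and up to 3 largest called changes per list, with IFNB1, IFNA1 and the untested ligands named after their counts were seen. A further gene of the naming rule is not reported here.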

Additional observations from a re-analysis of the deposited data

Results flagged for a closer look

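Within the groups of 4 libraries, 9 values of the members stood apart from the other 3 libraries of their group by a share of the group's range above Dixon's critical value for 4 values. Chance flags about 1 in 20 groups. In 7 of them the isolated library was DMSO replicate 4 as the highest, with 53.0 CPM for IFIT2, 33.2 CPM for IFIT3, 18.8 CPM for IFIT1, 6.38 CPM for OAS2, 4.32 CPM for OASL, 4.02 CPM for IFI44 and 2.49 CPM for ISG20. The others were the lowest of the PR-957 group, 8.32 CPM for IFIH1 in PR-957 replicate 4 and 0.947 CPM for IFIT2 in PR-957 replicate 1. On a log2 scale (CPM plus 0.5) DMSO replicate 4 was isolated as the highest in 3 tested members (8.33%) instead of 6, and in 1.52% of all tested genes.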

How the results depend on the processing

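Calls of 9 members (STAT2, IRF1, IRF5, IFIH1, DTX3L, BST2, TRIM22, IFI16 and XAF1) held in all 18 alternatives. Over members and alternatives, 543 values kept their direction and side of the threshold, 45 changed sign, 38 passed the threshold only in the alternative and 19 no longer passed. The cause was not tested for any of them. The number of members higher, 4, became 7 with no filter on low counts, 8 with limma-voom, 7 with DESeq2, 9 with replicates 1 and 2 against 3 and 4 as a term, and 12 in replicates 1 and 2 only. Leaving out single libraries gave 3 to 12 higher, 9 to 10 lower and a median log2 fold change from -0.15 to 0.18. Within replicates 1 and 2 the median was 0.19, and within replicates 3 and 4 it was -0.34. Receptors lower, 3, became 1 with library totals alone and 1 in replicates 3 and 4, and 1 to 4 without single libraries. Sensors lower, 4, became 2 with library totals alone, 2 in replicates 1 and 2, 2 in replicates 3 and 4 and 2 with DESeq2, and 2 to 3 without single libraries. Sensors higher, 5, became 3 in replicates 1 and 2. The DMSO level of IRF7 was 0.421 CPM per kb over both placements against 0.832.

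With the replicate number as a block, 9 members were higher and 10 lower, and ISG20 changed sign to 0.053. The block called HERC5 (adjusted p = 0.019), CMPK2 (0.0342), SAMD9 (0.0125), MX2 (9.18e-07) and IFI6 (0.00607) in addition. Same-numbered libraries had correlations of 0.151, 0.213, 0.0985 and 0.198, all positive. Each DMSO library correlated best with the PR-957 library of its own number. Of the PR-957 libraries only replicate 3 did not, with 0.105 for DMSO replicate 4. The main fit did not take the number as a pairing, and whether same-numbered libraries were handled together was not tested.

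Log2 fold changes that changed sign were 0.033 for ADAR, 0.016 for USP18, 0.023 for HERC6, 0.051 for MX1, 0.057 for ISG20 and 0.018 for SAMD9L with library totals alone, -0.0063 for OAS3 with no filter, -0.00011 for OAS3 and 0.0053 for ISG20 with the replicate term, 0.053 for ISG20 with limma-voom and 0.0019 for ISG20 with DESeq2. In replicates 1 and 2 they were 0.28 for OAS1, 0.30 for OAS2, 0.91 for IFIT1, 0.63 for IFIT3, 0.044 for USP18, 0.53 for HERC6, 0.82 for ISG20 and 0.25 for SAMD9L, and in replicates 3 and 4 -0.054 for OAS3, 0.31 for MX1, -0.21 for IFI35 and -0.50 for IFI44. Without single libraries the log2 fold change ran from -0.50 to 0.18 for OAS1, from -0.72 to 0.51 for OAS2, from -0.20 to 0.34 for OAS3, from -1.54 to 1.25 for IFIT1, from -1.52 to 0.85 for IFIT3, from -0.19 to 0.14 for HERC6, from -0.0070 to 0.29 for PARP9, from -0.17 to 0.14 for MX1, from -0.18 to 0.50 for ISG20, from -0.16 to 0.14 for SAMD9L and from -0.14 to 1.51 for IFI44. IFI44L, OASL and the interferon ligands did not pass the filter on low counts, and the part of depth in this was not tested. In the 2 or 3 alternatives that included OASL and IFI44L neither was called.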
